A study of Drosophila melanogaster with 4 samples.

Results

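The base of the X chromosome arm and the sequence XHet were examined for enrichment of Su(var)3-9 in Drosophila melanogaster larvae. The base is the last 2 Mb of the assembled arm, on the side of the centromere. XHet is a short piece of X heterochromatin assembled apart from the arm. The members are the enriched regions of the combined list whose midpoint lies between bases 20422828 and 22422827 of X, plus every enriched region on XHet. There are 262 of them among 21932 in all, 245 on the base of X and 17 on XHet. The same rule takes 84 of 6699 regions in ChIP replicate 1 (70 and 14) and 117 of 10048 in ChIP replicate 2 (103 and 14). Positions are those of FlyBase release 5, which the file headers name. Neither replicate list marks a depleted region anywhere, and none of the 5 marked in the combined list lies in this territory.

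The samples are wild-type Oregon-R larvae of the third instar, with 2 ChIP libraries made with the rabbit antibody Q2598 against residues 320 to 419 of Su(var)3-9, and 2 input libraries that were not analysed here. The labels give neither sex nor dissected tissue, so each list averages over the mixed cells of homogenized larvae. Nothing in the labels says that the ChIP libraries came from separate collections, so the SD between them may be technical. Read depth is unknown, since the lists hold no counts. With 2 libraries an exact two-sided sign-flip permutation cannot give a p below 0.5, so no p-values are given and differences are set beside the spread between the libraries. All values below are coverage (the share of bases inside regions), region lengths, and the score that the authors gave each region, whose scale is not stated.

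Su(var)3-9 places methyl groups on lysine 9 of histone H3, a mark that is bound by heterochromatin protein 1 and that spreads over repeat-rich DNA near centromeres. Its name comes from suppression of variegation, the patchy silencing of a gene moved next to heterochromatin, which was first studied with the white gene of X. The base of X is where the euchromatin of the arm meets pericentric heterochromatin. It carries flamenco, a source of small piRNAs that silence retrotransposons of the gypsy family, and beyond the assembled arm lie the ribosomal RNA genes. The lists name no genes, and the position of these loci relative to the regions was not examined.

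The base of X as a whole did not differ from the rest of the arm by more than the libraries differed. Its coverage was 7.93% in replicate 1 and 10.2% in replicate 2, and that of the rest of X was 5.90% and 12.5%. The base was thus higher by 2.03 percentage points in replicate 1 and lower by 2.22 in replicate 2 (difference -2.22), and the mean difference of -0.0948 was far smaller than its SD of 3.00 (n = 2). Scores gave the same picture. In replicate 1 regions of the base had a median score of 0.851, against 0.694 over the rest of X. In replicate 2 they had 0.600, against 0.614.

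That average hid a sharply uneven layout, in which 1 window of 100 kb, from 21600001 to 21700000, held far more bases in regions than the average of its surroundings. Replicate 1 covered 40.9% of the window and replicate 2 covered 36.4%, a mean of 38.6% ± 3.19 (SD, n = 2). The 200 kb on either side of it averaged 14.4% ± 1.68 (SD, n = 2). The difference was 25.3 percentage points in replicate 1 and 23.1 in replicate 2, a mean of 24.2 with an SD of 1.51, so the excess was several times the spread between the libraries. Because this window was picked as the one of the base with most bases in both lists, these values describe it and test nothing.

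At 30.9% of its bases in both lists at once, it was the only window of the 21 touching the base, and the only window of 225 on X, to reach 25%. Over all large arms 36 of 1194 windows did so, which is 3.02%. On X it ranked highest by shared bases and highest in replicate 1, and it was the fifth (rank 5) in replicate 2 and rank 8 in the combined list. The neighbouring window, 21500001 to 21600000, had the next most shared bases on X with 13.8%. The windows 21800001 to 21900000 and 21700001 to 21800000 followed within the base with 9.84% and 7.54%. The fifth of the base was 20900001 to 21000000, with 3.67%. The best window in the interior of X, 6400001 to 6500000, reached 12.2%.

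**Figure D1:**
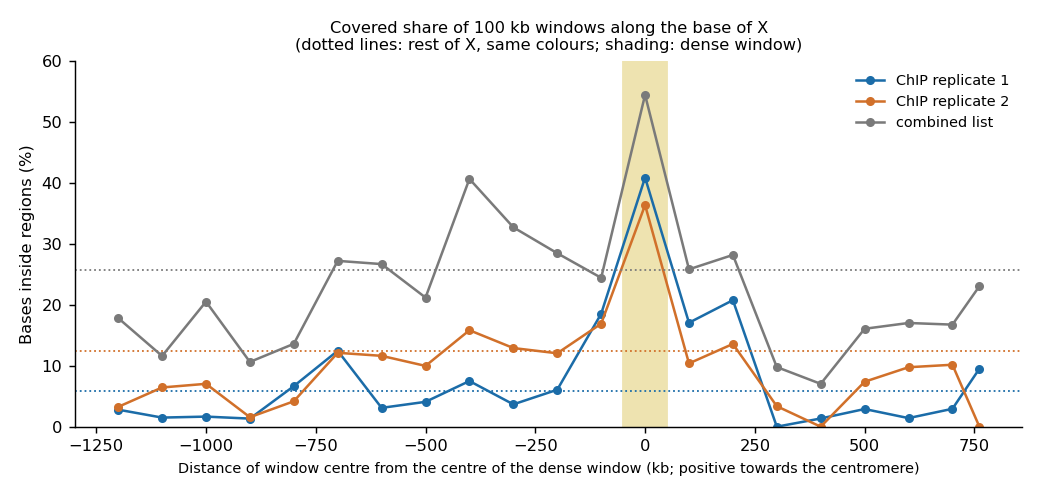
Covered share (%, y axis) of the 21 windows of 100 kb that touch the base of X, against the distance in kb of each window's centre from the centre of the dense window (shaded), with points for replicate 1, replicate 2 and the combined list. Dotted lines give the coverage of the rest of X in the same list, 5.90%, 12.5% and 25.7%. The dense window stands at 40.9%, 36.4% and 54.4%, and the windows just beyond 250 kb towards the centromere lie below all 3 dotted lines.

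Inside the window each replicate list had 12 regions, and they lay at nearly the same places. Bases called in both lists made up 30.9 kb of it. They formed 11 stretches of 1570 to 6630 bp centred in the window, plus the end of a longer stretch, 21594885 to 21602262, that begins before it. The Jaccard index, the bases in both lists divided by the bases in either, was 0.669 here and 0.124 over the rest of X. In replicate 1, 10 of the 12 overlapped a region of the other list, where 53.5% do so over the full list. In replicate 2, 11 of the 12 did, where the full list gives 37.5%. The window was picked by its bases in both lists, so its index and these partner shares are high in part by that choice and test nothing. Long regions and dense lists meet more often by position alone, and the part of this in the overlap was not tested.

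Of the stretches centred in the window, the most distal lay at 21604805 to 21606624, scored 1.09 in replicate 1 and 1.42 in replicate 2, and another at 21609059 to 21610726, scored 1.36 and 1.17. Next came 21621571 to 21623573 with scores of 1.24 and 0.970, and 21630055 to 21631913 with 1.27 and 0.731. The stretch at 21636910 to 21642092 measured 5183 bp and was scored 1.43 and 0.942. All of these lie in the distal part of the window, and only the most distal of them scored higher in replicate 2.

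In the middle of the window, 21649491 to 21651357 was scored 1.08 in replicate 1 and 0.711 in replicate 2. Next to it 21660857 to 21662426 was scored 1.03 and 0.827, and 21664135 to 21666569 was scored 1.34 and 1.10. The longest stretch of the window, 6630 bp at 21673537 to 21680166, was scored 1.21 and 0.714. It continued at 21680547 to 21682362, which replicate 1 joined to it in a single region of 8909 bp and replicate 2 scored 0.459. The last stretch was 21685045 to 21686876, at 1.04 and 0.835. Scores in the window were therefore close together in replicate 1, from 0.786 to 1.69, and somewhat lower in replicate 2, from 0.459 to 1.42.

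A few regions of the window were in 1 replicate list only. Replicate 1 alone had 21619699 to 21621024, which was its highest score in the window at 1.69, and 21683214 to 21684686, its lowest at 0.786. Replicate 2 alone had 21667065 to 21668921, scored 0.901. The combined list had 14 regions there, of 1243 to 9011 bp, with a median score of 0.927 against 0.443 over the rest of X. Of these, 10 overlapped both replicate lists, compared with 15.6% of the combined list as a whole, a contrast that also follows in part from how the window was picked. Its highest score in the window, 1.26 at 21626906 to 21629233, belonged to a region that overlaps neither replicate list. The next were 1.09 at 21603716 to 21606653 and 1.03 at 21621343 to 21623795, and the longest, 9011 bp, lay at 21673448 to 21682458. The shortest, 21632925 to 21634167, was also absent from both replicate lists.

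The borders of the window follow a grid and not the data. Grouping the regions of either replicate that lie less than 20 kb apart, a rule set after the data were seen, gave a cluster from 21577306 to 21686961, 109.7 kb long. Its coverage was 47.4% in replicate 1 and 43.4% in replicate 2. The cluster reaches past the distal edge of the window and stops short of its proximal edge. At its distal end stood the longest stretch of the whole base called in both lists, 7378 bp at 21594885 to 21602262, scored 1.22 in replicate 1 and 1.03 in replicate 2. Before it lay 21581855 to 21586050, 4196 bp, whose scores of 2.56 and 2.08 had rank 3 on X in each replicate, and regions scored 2.27 in replicate 1 and 1.65 in replicate 2 that share 29 bp at 21578601 to 21578629.

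Proximal to this cluster came an abrupt gap. From 21686962 to 21758952, a distance of 72.0 kb, neither replicate list had a region, and the combined list was empty over 71.9 kb of the same interval. Whether reads can be placed in this interval, or in the empty intervals named below, was not examined. A second cluster then ran from 21758953 to 21828393, 69.4 kb long. Replicate 1 covered 45.5% of it, replicate 2 29.6% and the combined list 63.6%. The grid splits this cluster between the windows 21700001 to 21800000 and 21800001 to 21900000, so no single window shows its density. The proximal flank holds all of it and most of the gap, and the flank's coverage averages over both. The second cluster was less alike in the replicates than the first, with a Jaccard index of 0.444 against 0.680. In it, 6 of 12 regions in replicate 1 and 6 of 8 in replicate 2 had a partner, where the full lists give 53.5% and 37.5%. Of 5 such clusters longer than 50 kb in the base, these were the 2 with at least 20% of their bases in both lists. Together they take up 8.96% of the base and hold 65.9% of its bases called in both lists, a share that follows in part from their choice, since the 20% limit was also set after the data were seen and uses the same bases.

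**Figure D2:**
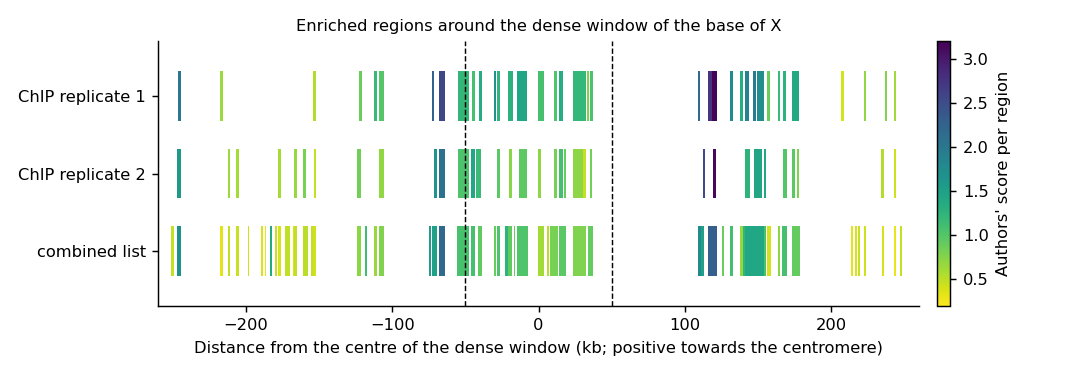
Enriched regions around the dense window (between dashed lines), drawn to scale against the distance in kb from its centre, with a row each for replicate 1, replicate 2 and the combined list and colour for the authors' score. An empty interval of 72.0 kb follows the first cluster, and the second cluster holds the darkest bars, scored 3.17 in replicate 1 and 3.13 in replicate 2.

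In both replicate lists the second cluster carried the highest score of the X arm. The region at 21768854 to 21772060 in replicate 1, scored 3.17, ranked first (rank 1) of 724 regions on X. Its partner in replicate 2, 21768956 to 21771371, scored 3.13 and ranked first of 1402. In replicate 1 the next on X were 21766044 to 21768420 with 2.75, then the first cluster's region at 2.56. In replicate 2 the next was 21762372 to 21763745 with 2.53, which has no partner in replicate 1. The top 4 scores of X in each replicate list lie in the 2 clusters, and so does the fifth of replicate 1, 21758953 to 21760580, at 2.17. The fifth of replicate 2 lies in the distal flank, at 21403088 to 21405570, scored 1.57, and its partner scored 2.01 in replicate 1.

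The combined list put the same places near the top of X, though its highest score on X, 3.28, lay outside the base. It scored 2.30 at 21765869 to 21771903 (rank 2 of 3158 on X), 2.20 at 21581733 to 21586097 (rank 3) and 1.79 at 21758893 to 21760888 (rank 6). The longest combined region of the base outside the window was 12899 bp at 21791154 to 21804052, scored 1.41. It spans the shared stretches 21791270 to 21794210 (2941 bp, scored 1.88 in replicate 1 and 1.26 in replicate 2) and 21799292 to 21802950 (3659 bp, scored 1.73 and 1.44). These are 2 of the 5 longest shared stretches of the base outside the window. The remaining one, at 21540898 to 21544038, measured 3141 bp and was scored 0.998 in replicate 1 and 0.703 in replicate 2.

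Taking scores by position, medians of the window and its flanks stood above that of the rest of X in both replicates, and those of the outer parts of the base lay near or below it. The median score of the window was 1.23 in replicate 1 and 0.868 in replicate 2, that of the distal flank 1.18 and 0.758, and that of the proximal flank 1.35 and 1.13. In replicate 1 all 12 regions of the window exceeded the median of the rest of X, as did 7 of 9 in the distal flank and 14 of 16 in the proximal flank. In replicate 2 the counts were 11 of 12, 9 of 12 and 8 of 10. Set against both flanks together, the median score of the window differed by only -0.0362 in replicate 1 and -0.0356 in replicate 2, while in the combined list it was higher by 0.341.

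**Figure D3:**
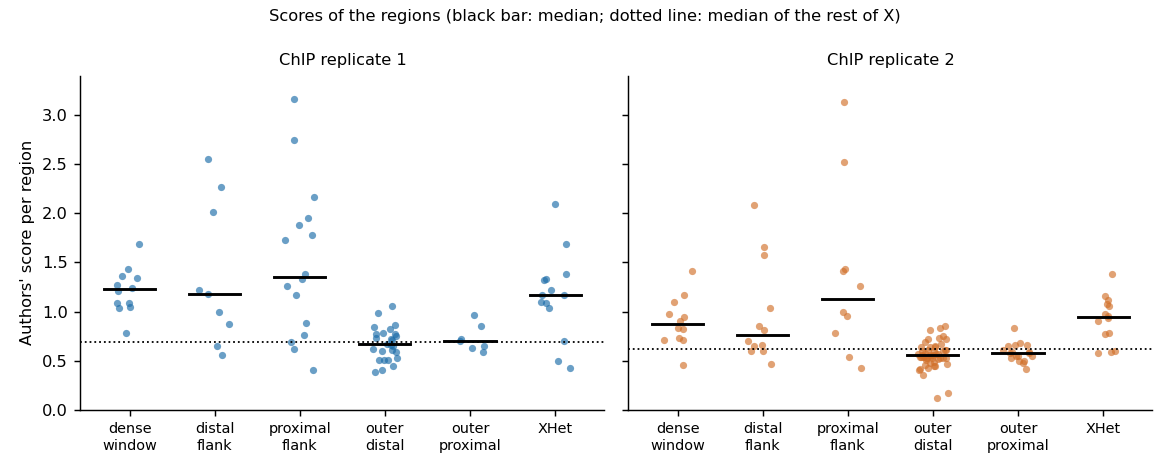
Authors' score (y axis) of every region of the base of X and of XHet, by position, in replicate 1 (left) and replicate 2 (right), with black bars at the medians and a dotted line at the median of the rest of X (0.694 and 0.614). Regions of the dense window, its flanks and XHet lie mostly above the line. The outer parts of the base lie around it in replicate 1 and mostly below it in replicate 2.

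Farther from the window, the base was covered less than the rest of X on both sides in the replicate lists. In the combined list the outer distal part had 144 regions per Mb, against 143 over the rest of X, and a coverage of 22.45% against 25.7%. The outer proximal part had 88.0 regions per Mb there. In the replicate lists the outer distal part, 977 kb from 20422828 to the flank, had a coverage of 4.57% in replicate 1 and 8.68% in replicate 2. The outer proximal part, the last 523 kb of the arm and the piece nearest the centromere, had 2.06% and 5.86%. Both values of each part lie below those of the rest of X, 5.90% and 12.5%, from which no dense windows were taken out. The outer distal part exceeded the outer proximal part by 2.51 percentage points in replicate 1 and 2.82 in replicate 2, a mean of 2.67 with an SD of 0.217 (n = 2).

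The outer proximal part held 7 regions in replicate 1 and 18 in replicate 2, and 3 of each list had a partner. These shares were 42.9% in replicate 1 (95% Wilson interval 15.82 to 74.95) and 16.7% in replicate 2 (5.84 to 39.22). The rest of X gave 44.8% and 23.0%, and the full lists 53.5% and 37.5%, all inside those wide intervals. The outer proximal part also held the longest interval of the base without a region in either replicate, 109 kb from 21946278 to 22055672. Its shared stretches were short and of modest score. The longest, 1408 bp at 22211644 to 22213051, was scored 0.856 in replicate 1 and 0.830 in replicate 2. The last, 1118 bp at 22396584 to 22397701, was scored 0.647 and 0.608. In the outer distal part no region scored above 1.06 in replicate 1 or 0.850 in replicate 2, and its longest region was 3064 bp in replicate 1 and 3580 bp in replicate 2.

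XHet, only 204 kb long (204.1 kb), was covered almost equally in the replicates, at 25.9% in replicate 1 and 25.6% in replicate 2. Its mean of 25.7% ± 0.222 (SD, n = 2) exceeded the base of X by 16.6 percentage points with an SD of 1.85, and each library showed the excess, 17.9 in replicate 1 and 15.3 in replicate 2. Against the rest of X the ratio was 4.38 in replicate 1 and 2.05 in replicate 2, since the coverage of XHet was alike in the libraries and that of the rest of X was not. The median score on XHet was 1.17 in replicate 1 and 0.945 in replicate 2, higher than the base of X by 0.318 and 0.345. The dense window of the arm was covered more heavily than XHet, by 15.0 percentage points in replicate 1 and 10.8 in replicate 2.

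Enrichment on XHet lay mostly at its far end by the assembly's numbering. Cut into 4 equal parts of 51.0 kb, XHet was covered at 2.66%, 15.2%, 44.6% and 41.1% in replicate 1 and at 4.28%, 9.29%, 40.4% and 48.2% in replicate 2. The orientation of XHet to the centromere is not given in the files. The opening 26.5 kb and the closing 19.6 kb of the sequence had no region in either replicate list.

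The longest stretch of all members was on XHet, 15170 bp at 136868 to 152037, scored 1.33 in replicate 1 and 1.05 in replicate 2. Replicate 1 had it within a region of 18295 bp and replicate 2 within a region of 15253 bp. After it came 155968 to 161562 (5595 bp, scored 1.38 and 1.16), 179687 to 184538 (4852 bp, scored 1.69 and 1.38) and 162672 to 167180 (4509 bp, scored 1.32 and 0.768). The fifth was 175476 to 177495, 2020 bp, scored 2.09 in replicate 1, the highest of XHet, and 1.07 in replicate 2. The widest regions of both libraries therefore lie between 133743 and 184554, and those before it measured at most 2566 bp in replicate 1 and 2625 bp in replicate 2.

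Regions in 1 list only lay along most of XHet, and the lowest score of each replicate lay in its earlier part. A stretch of 744 bp at 27132 to 27875 was scored 0.496 in replicate 1 and 0.579 in replicate 2. Replicate 1 alone had 52894 to 54572 (0.423), 73177 to 74486 (0.699), 112022 to 113369 (1.17) and 123297 to 124908 (1.08). Replicate 2 alone had 117618 to 119940 (1.11) and 168255 to 170305 (0.956). All other regions of XHet had a partner, 10 of 14 in replicate 1 (71.4%, 95% Wilson interval 45.4 to 88.3) and 12 of 14 in replicate 2 (85.7%, 60.1 to 96.0), where the full lists give 53.5% and 37.5%. On the other Het sequences compared the shares ran from 74.4% on 3LHet to 86.1% on 2LHet in replicate 1 and from 83.3% on 2LHet to 94.0% on 3LHet in replicate 2.

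**Figure D4:**
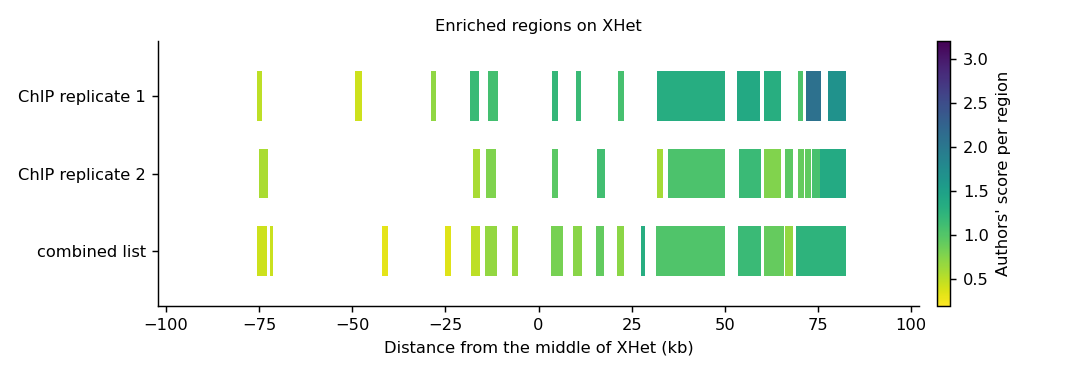
Enriched regions on XHet, drawn to scale against the distance in kb from its middle, with a row each for replicate 1, replicate 2 and the combined list and colour for the authors' score. In each row the wide bars stand in the right part of the sequence, the widest measuring 18295 bp in replicate 1 and 15253 bp in replicate 2, and the last 19.5 kb is empty in the combined list too.

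In the combined list XHet had 17 regions covering 34.5% of the sequence. The longest, 18555 bp at 133598 to 152152, was scored 1.03. The highest scores were 1.33 at 129431 to 130727, 1.26 at 171136 to 184572 and 1.17 at 155635 to 161789. The top one was in neither replicate list, and its 1297 bp lie just under the 1301 bp of the shortest region there. The shortest, 29862 to 30862, has the list's minimum of 1001 bp and was scored 0.435.

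Counted over the whole base, agreement between the replicates was near that of the full lists. There 38 of 70 regions of replicate 1 overlapped one of the other list (54.3%, 95% Wilson interval 42.7 to 65.4), close to the 53.5% of the full list. In replicate 2, 41 of 103 did (39.8%, 30.9 to 49.5), close to the 37.5% of the full list. Outside the window the shares were 48.3% of 58 and 33.0% of 91. Over the rest of X they were 44.8% of 654 and 23.0% of 1299. The intervals cover counting error only, and neighbouring regions are not independent.

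In bases, the Jaccard index was 0.679 on XHet and 0.307 on the base of X, of which 0.669 in the window and 0.428 in its flanks. The other Het sequences compared had values near that of XHet, 0.582 on 2LHet, 0.649 on 3LHet and 0.637 on 3RHet, and the whole series had 0.280. The window was picked by its shared bases, so its index is a description. The index was 0.142 in the outer distal part and 0.103 in the outer proximal part, near the 0.124 of the rest of X. Edges of paired regions also lay close together. Among 9 pairs in the window whose regions match one to one, the median distance between the 2 lists' edges was 305 bp, and it was 220 bp for 23 pairs in the base outside it, 361 bp (361.5) for 7 pairs on XHet and 490 bp (490.5) for 270 pairs over the rest of X. Where both lists had a stretch, replicate 1 scored it higher in 10 of 11 cases in the window, 28 of 31 in the base outside it and 12 of 13 on XHet. It did so in 76.4% of 305 stretches over the rest of X. A region that spans several stretches was counted once for each, so these cases are not independent.

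The combined list had regions outside both replicate lists in every part of the base. It covered 22.6% of the base against 25.7% of the rest of X, and 54.4% of the window against 26.7% of the flanks, a ratio of 2.04 for the window where the replicates gave 2.62 and 2.75. Of the 245 combined regions of the base, 127 overlapped neither replicate list (51.8%, 95% Wilson interval 45.6 to 58.0), against 44.4% of the full combined list and 45.7% of the rest of X. That share was 83 of 141 in the outer distal part, 25 of 46 in the outer proximal part, 16 of 44 in the flanks, 3 of 14 in the window and 5 of 17 on XHet. Where the replicates have few regions there is less to overlap, and the part of this in these shares was not tested. Both lists were overlapped by 36 of 245 regions of the base (14.7%, 10.8 to 19.7) and by 8 of 17 on XHet, where the full list gives 15.6%.

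The regions found by the combined list alone were short. On the base they had a median of 1213 bp and a median score of 0.444, against 2924 bp and 0.774 for those that overlap both lists. Of the 127, 80 (63.0%) were shorter than 1301 bp, the shortest length in either replicate list. Of such regions in the full combined list, 59.0% were. The shortest members of the base have 1001 bp, which 10 regions share, among them 20677122 to 20678122, scored 0.594.

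Set beside the proximal 2 Mb of 2L, 3L and 3R, the base of X had the lowest coverage in each replicate. It averaged 9.09% ± 1.63, against 37.5% ± 4.61 for 3L and 21.7% ± 2.68 for 2L (SD, n = 2 each). X lay 28.4 percentage points below 3L (mean difference -28.4, SD 6.24) and 12.7 below 2L (-12.7, SD 4.31), in each case lower in both libraries. The base of 3R, at 8.44% in replicate 1 and 13.7% in replicate 2, was nearer, and X differed from it by -1.98 with an SD of 2.08, within the spread between the libraries. XHet was covered less than 3LHet by 17.1 points (-17.1, SD 7.37) and less than 3RHet by 11.3 (-11.3, SD 4.55). From 2LHet it differed by -1.93 with an SD of 3.96. The dense window, at 38.6%, was near the mean of the whole base of 3L. These are not like for like, since the window of 100 kb was picked by its shared bases and the 2 Mb of 3L were not picked.

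**Figure D5:**
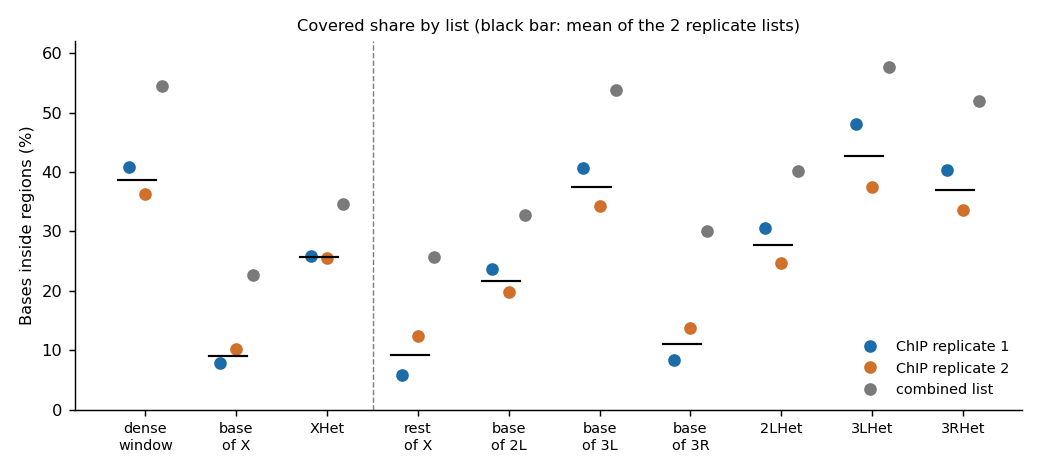
Covered share (%, y axis) in replicate 1, replicate 2 and the combined list, with a black bar at the mean of the replicates, for the dense window, the base of X and XHet (left of the dashed line) and for sequences they are compared with. The base of X lies at 7.93% and 10.2% in the replicates, beside the rest of X and the base of 3R, while the dense window and the base of 3L reach similar values. The window was picked by its shared bases and the base of 3L was not, so those 2 are not like for like.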

How the data were processed

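Enriched regions of 2 ChIP libraries and of the replicate set were taken as the authors deposited them. Positions follow FlyBase release 5, per the file headers, and the submitters' processing notes list Bowtie 0.12.7. Not given in the sources used here are the treatment of reads matching several places, the region caller, its threshold and the use of input. The score of each region is the authors' own, per the file headers without a stated scale, and was used only within a list or beside the same place in another. Libraries were grouped by title. Coverage was counted in bases, and members by midpoint. Partners overlap by at least 1 bp. Scripts ran in Python 3.11.15 with pandas 2.3.3, SciPy 1.17.1 and NumPy 2.4.6, and were checked on 40 simulated lists. Members, windows and named regions (all of the window, the 5 longest shared stretches, the 3 highest combined scores, the longest and shortest regions, and the 5 windows with most shared bases) were chosen with earlier results of these data known. Gene positions were not used, since the gene table follows release 6.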

Additional observations from a re-analysis of the deposited data

How the results depend on the processing

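Of 36 alternatives for 6 results, 25 stayed within the spread between the libraries or the counting interval, 11 moved beyond it and 0 changed the sign of a difference larger than that spread. The 25 include every setting with 1 library left out. With 2 libraries such a setting stays within their SD almost by construction, so it does not test stability. As log2 ratios of mean coverage, the base over the rest of X was -0.01, and -0.28 to 0.43 with 1 library left out. XHet over the rest of X was 1.49, and 1.04 to 2.13 with 1 library left out, but 0.52 as regions per Mb and 0.43 in the combined list. The dense window over its flanks was 1.42, and 1.39 to 1.46 with 1 library left out. Using the 50% with the highest scores gave 1.54, the longest 50% gave 1.73, regions per Mb gave 1.03 and the combined list gave 1.03. With a window of 50 kb it was 1.05, with 200 kb 0.94, with flanks of 100 kb 1.30 and against all of the base 2.36. The cause of these moves was not tested, except that wider or narrower windows change what is compared. The share of replicate 2 members with a partner was 45.3%, and 35.9% when the overlap had to take in 50% of both regions. The median score of members minus that of the rest of X was 0.111, and -0.00646 to 0.229 with 1 library left out. No paired analysis was possible because no file used here belongs to an input library, so ChIP and input were not compared. Differences between sequences were taken within each ChIP library. Unknown depth limits what a missing region in 1 list can show.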

Other observations

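Scores repeat exactly among regions of a list. In replicate 1, 38 of 70 regions of the base of X carry a score that another region of the list also has, and in replicate 2 it is 69 of 103, against 53.4% and 59.0% over the full lists. On XHet it is 5 of 14 and 4 of 14. The values were compared after rounding to 9 decimals.

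The clusters account for unequal parts of the base in the 2 libraries. They hold 52.7% of the bases of replicate 1 there, 33.3% of those of replicate 2 and 24.7% of those of the combined list. Outside them replicate 1 covered 4.12% of the base, against 5.90% of the rest of X, and replicate 2 covered 7.50%, against 12.5%. The base is here without its densest clusters while the rest of X keeps its own, so its lower coverage follows in part from that choice.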
